A study of Mus musculus with 45 samples.

Results

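Mouse chromosome 14 was followed by array CGH (comparative genomic hybridization, in which tumor and reference DNA compete for the same probes) in 45 mammary gland tumors of 8 genetically engineered models. The set comprised every probe that the array design places on chromosome 14 of the mm8 build, apart from the probes of 1 gene. It held 1548 of the 42233 probes measured on the autosomes and chromosome X. The probes, each 45 to 60 bases long, ran from chr14:6628547 to chr14:123875911, a span of 117.2 Mb with 13.2 probes per Mb and a median gap of 22.9 kb. The longest gap was 6.97 Mb, between chr14:78505318 and chr14:85476141, so a boundary inside it could not be placed more finely. Of the 1548 probes, 215 were named by position alone, and the others carried 746 gene names, 529 of which matched a RefSeq symbol or synonym.

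All tumors were labelled as primary invasive mammary tumors of female mice, and the labels gave no age or strain. BRCA1-/-;p53+/- tumors (BRCA1fl/fl;p53+/-;MMTV-cre, n = 5) carried floxed Brca1 alleles cut by Cre under the MMTV promoter, which is active in mammary epithelium, together with 1 mutant p53 allele. The p53-/- tumors (p53fl/fl with MMTV-cre, n = 6) were given as transplants, and whether they came from separate donor glands was not stated. C3(1)-Tag tumors (n = 5) expressed the SV40 T and t antigens from the C3(1) promoter, of which large T binds the p53 and retinoblastoma proteins. The remaining models carried an oncogene under the MMTV promoter, namely MMTV-HRas (n = 5), MMTV-PyMT (polyoma middle T antigen, n = 9), MMTV-Myc (n = 5), MMTV-Her2/neu (n = 5) and MMTV-Wnt1 (n = 5). Each tumor had 1 array, and every array used a reference that the labels call pooled spleen in one field and normal mammary in another.

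Copy number gains and losses in a tumor are read as a ratio of tumor to reference DNA along a chromosome, and a boundary between segments of different ratio marks a breakpoint. The DNA came from whole tumors, so a change carried by some of the cells and a change diluted by normal cells cannot be told apart. Mouse chromosome 14 carries Fhit and Ptprg near its proximal end, the T cell receptor alpha and delta locus with neighbouring protease and ribonuclease gene clusters, the death receptor gene Tnfrsf10b, and several microRNA genes.

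A pair of microRNA clusters on the chromosome have opposite reputations, and their mature sequences are shown because the gained and lost segments described below cover or spare them. The miR-17-92 cluster is known as an oncogenic cluster that is amplified in lymphoma, and miR-15a/16-1 as a cluster that is deleted in chronic lymphocytic leukemia. The sequences are those of RefSeq (GRCm38.p6), written 5′ to 3′, with the seed, bases 2 to 8, in capitals.
mmu-miR-17-5p: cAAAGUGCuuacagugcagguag
mmu-miR-20a-5p: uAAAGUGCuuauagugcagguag
mmu-miR-18a-5p: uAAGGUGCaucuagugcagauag
mmu-miR-19a-3p: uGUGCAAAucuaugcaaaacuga
mmu-miR-19b-3p: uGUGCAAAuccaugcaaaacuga
mmu-miR-92a-3p: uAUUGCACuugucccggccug
mmu-miR-15a-5p: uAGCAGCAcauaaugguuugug
mmu-miR-16-5p: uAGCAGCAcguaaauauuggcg
miR-17-5p and miR-20a-5p share a seed, as do miR-19a-3p with miR-19b-3p and miR-15a-5p with miR-16-5p.

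Values are log2 ratios of Cy3 over Cy5, centred on the median of the autosomal probes of each array, with positive values read as gain in the tumor. The labels give Cy5 to the tumor, and with the dyes as labelled every sign below turns. The direction used here was chosen after values were seen. Deposited intervals of chromosome 14 were kept where they had 3 or more probes and were 0.2 or more away from 0. Of 22 such intervals, 21 had the sign of Cy3 over Cy5. A Brca1 probe at chr11:101340828-101340887 averaged -3.97 (range -5.14 to -1.69) in BRCA1-/-;p53+/- tumors, and the means of the other models lay between -0.25 and 0.23. A Wnt1 probe at chr15:98621829-98621888 read 1.07 to 1.497 in 4 of the 5 MMTV-Wnt1 tumors and 0.07 in Wnt_4635, whose label it therefore does not bear out. Across all autosomal bins C3TAg_7RPT correlated with the MMTV-Her2/neu tumor H2N61 (r = 0.928) and C3TAg_5RPT with H2N53 (r = 0.960), although on the 92 bins of chromosome 14 these values were 0.19 and 0.46. None of these 5 tumors had a gain or a loss of chromosome 14 by the definition below, but the deposited intervals give C3TAg_5RPT a gain over the whole chromosome (0.44, against 0.05 here) and Wnt_4635 another (0.20, against 0.01 here).

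A tumor was scored for loss or gain when at least 10% of its chromosome 14 probes lay in segments with a mean of at most -0.2 or at least 0.2. Loss was found in 5 of the 45 tumors (11.1%, exact Clopper-Pearson 95% interval 3.71 to 24.1%) and gain in 6 (13.3%, 5.05 to 26.8%). These intervals cover counting error only. The p53-/- model held 3 of the losses and 3 of the gains, so that each of its 6 tumors was scored. This count depended on the processing. With centring at the density peak of each array P53_1573 was no longer scored and P53_8546 turned from gain to loss, with 0.97% of its probes gained and 82.5% lost. At a segment threshold of 0.3 neither of them was scored, and by the deposited intervals P53_1573 and P53_2979 were not. The other altered tumors were spread over BRCA1-/-;p53+/- (1 loss, 1 gain), C3(1)-Tag (1 loss), MMTV-HRas (1 gain) and MMTV-PyMT (1 gain). No MMTV-Myc, MMTV-Her2/neu or MMTV-Wnt1 tumor was scored, which with 0 of 5 tumors leaves room for a share of up to 52.2% in each. Under other processing 2 of these tumors were scored for gain, Myc_04004021 after normexp background correction of the raw signals and Wnt_4635 by the deposited intervals. By the same scoring 8 autosomes were lost in more tumors than chromosome 14 and 12 were gained in more, with losses ranging from 1 tumor for chromosome 5 to 16 for chromosome 10.

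Most alterations took in the whole chromosome. In 5 tumors at least 90% of the probes lay in lost segments and in 4 tumors at least 90% lay in gained segments. The exceptions were Brca_54 and P53_8546, whose gains covered 18.0% and 14.6% of the probes. The mean over the chromosome was -0.08 ± 0.34 (SD, n = 6) in p53-/-, -0.05 ± 0.15 (n = 5) in BRCA1-/-;p53+/-, -0.05 ± 0.15 (n = 5) in C3(1)-Tag and 0.00 ± 0.24 (n = 5) in MMTV-HRas. In the remaining models it was 0.04 ± 0.13 (n = 9) in MMTV-PyMT, 0.04 ± 0.08 (n = 5) in MMTV-Myc, 0.04 ± 0.02 (n = 5) in MMTV-Her2/neu and 0.01 ± 0.01 (n = 5) in MMTV-Wnt1. The spread among p53-/- tumors was thus the widest of the 8 models and that among MMTV-Wnt1 tumors the narrowest.

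**Figure D1:**
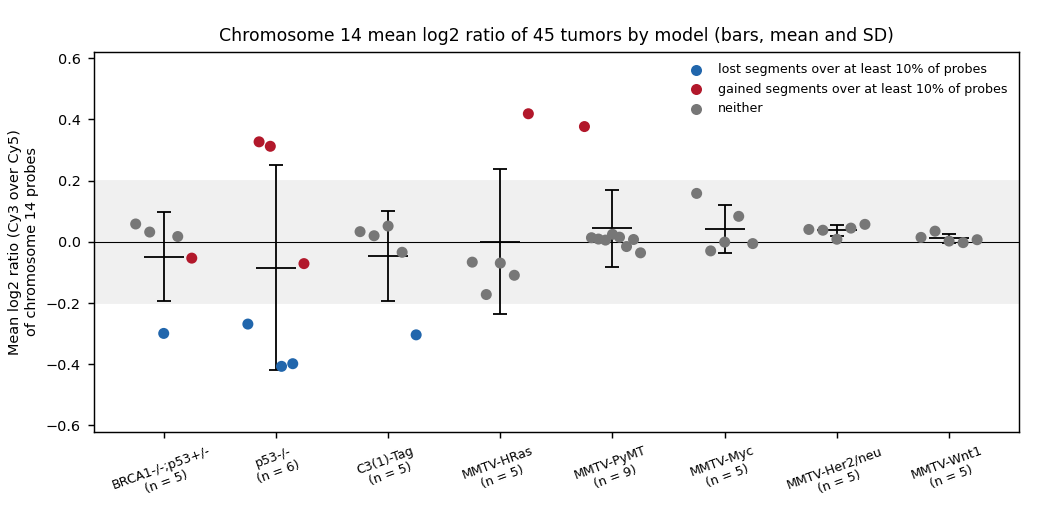
Mean log2 ratio (Cy3 over Cy5) of the chromosome 14 probes in each of the 45 tumors, by model, with the model mean and SD as bars and the scored losses in blue and gains in red. The p53-/- tumors split into 3 losses between -0.41 and -0.27 and 3 tumors scored for gain, while all MMTV-Her2/neu and MMTV-Wnt1 tumors lay between -0.0027 and 0.06.

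Within the p53-/- model the mean of the chromosome was -0.41 in P53_5817, -0.40 in P53_5851, -0.27 in P53_1573, -0.07 in P53_8546, 0.31 in P53_5809 and 0.33 in P53_2979. The losses in P53_5817 and P53_5851 were even along the chromosome, with a lowest, median and highest bin of -0.65, -0.46 and 0.04 in the former and -0.62, -0.42 and 0.05 in the latter. In both tumors chromosome 14 had the lowest mean of the 19 autosomes. P53_1573 was shallower, with bins between -0.51 and 0.11 and a median of -0.29.

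The gains in P53_2979 and P53_5809 were less even than these losses. Their bins ran from -0.15 to 0.71 (median 0.22) in P53_2979 and from -0.18 to 0.76 (median 0.18) in P53_5809, and only 53 and 40 of the 92 bins reached 0.2. The SD of single probes was 0.45 and 0.48, against 0.20 to 0.27 in the 4 other p53-/- tumors. These tumors were hybridized on different slides and scanned on different dates, yet their bin values went together, with r = 0.82 over the 92 bins of chromosome 14 and r = 0.72 over the 1965 other autosomal bins. The points share the probes and the reference, and no test was made of this likeness.

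P53_8546 was the only p53-/- tumor broken into segments after single outlier probes were smoothed. A loss with a mean of -0.49 covered chr14:55653233-62233217, 6.58 Mb with 126 probes. Its median lay 0.46 below the rest of the chromosome, and in the 44 other tumors the same window lay between -0.15 and 0.07 of the rest. The lost segment began between 4930548G07Rik and AK210172 and ended before Blk, a Src-family kinase of B cells that read 0.06. It took in the connexin Gja3 (-0.70), the ubiquitin ligase Trim13 (-0.62), the ribonuclease H2 subunit Rnaseh2b (-0.49), the transcription factor Gata4 (-0.70) and the growth factor Fgf9 (-0.22), whereas the probes of the Hippo kinase gene Lats2 averaged 0.03 inside it. A gain with a mean of 0.25 covered the distal chr14:92001121-123875911 in 221 probes, 0.35 above the rest against -0.10 to 0.06 in the other tumors, and it held Klf5 (0.36), an epithelial transcription factor, and the signalling inhibitor Spry2 (0.22). The remaining segments of this tumor lay at -0.08 and -0.10. The deposited intervals hold this loss (-0.21) and this distal gain (0.53). They also give P53_8546 a gain over the whole chromosome (0.21, against -0.07 here).

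Before smoothing p53-/- held the most breakpoints, 73 against 31 in BRCA1-/-;p53+/-. After single outlier probes were smoothed, the BRCA1-/-;p53+/- tumors held the most, 11 of 25, in 4 of 5 tumors. Of these 11, 4 lay at the same place before smoothing, all 3 of Brca_54 and 1 of Brca_42, and the other 7, with all those of Brca_14 and Brcap53_682, were placed only after it. Brca_54 had a proximal gain followed by a distal part slightly below 0. The gain covered chr14:6628547-9983577 (38 probes, mean 0.42) and chr14:11088452-26446026 (241 probes, mean 0.40), and the remaining 1262 probes from chr14:26793377 onward had a mean of -0.15. The distal boundary lay before Erc2, which encodes a scaffold of the presynaptic active zone. Both parts of the gain stood 0.53 above the rest of the chromosome, while the other tumors lay between -0.07 and 0.10 for the larger part.

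Between the gained parts of Brca_54, 7 probes over chr14:10047575-11081924 had a mean of -0.23. All 3 probes of Ptprg, a receptor tyrosine phosphatase gene, were low there, at -0.31, -0.32 and -0.65. The 2 probes of its neighbour Fhit, a fragile-site gene with tumor suppressor activity, read 0.54 and 0.32 and so belonged to the gained part. The 7-probe window was not below all other tumors, which lay between -0.31 and 0.21 of their own rest.

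Brca_14 had lost the whole chromosome, with a mean of -0.30, the lowest of its 19 autosomes, and a deeper loss inside it. Its loss over the chromosome was not scored at a threshold of 0.3 (7.62% of probes) or by the deposited intervals (0.58%). Over chr14:13118184-15167952 the mean of 22 probes was -0.88, against -0.38 before and -0.27 after it. The window lay 0.50 below the rest of the chromosome, and the other tumors lay between -0.21 and 0.42. It ran from the interleukin-3 receptor gene Il3ra (-1.45) and the bicarbonate transporter Slc4a7 (-0.79 and -0.43) over Lrrc3b and Ngly1 (-0.42 and -1.43) to the first probe of the DNA topoisomerase gene Top2b (-0.64), and the next Top2b probe read -0.16. The olfactory receptor gene Olfr31 (0.16), inside the window, was not low. The lowest values were those of the probe at chr14:14079982-14080041 (-4.14), AK021355 (-3.46) and the second of 2 Lrrc3b probes (-1.02 and -2.96). After background correction by normexp on the raw signals, the first of these read -0.80 and the second -2.14.

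A second run of low probes in Brca_14 lay 2 Mb further on, over chr14:17215994-17601418. The 4 probes there, 2 named by position and 2 in the ubiquitin-conjugating enzyme gene Ube2e2, read -3.03, -2.16, -1.05 and -3.92, the last of which was -0.89 after normexp. The neighbouring probes of AK085192 (-0.46) and S71494 (0.01) were outside it. Brcap53_682 showed a shallower loss in nearly the same place as the first window of Brca_14, with a mean of -0.22 over chr14:12969090-15124448 (23 probes), 0.23 below its rest, but it had no lost segment on the chromosome after normexp or by the deposited intervals.

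The other BRCA1-/-;p53+/- tumors had shallow segments. Brca_42 had a mean of -0.22 over chr14:67395082-73661045 (118 probes), but a median of -0.15 that lay 0.16 below the rest, where the other tumors lay between -0.09 and 0.05. After normexp this tumor had no lost segment. The 2 probes of Stc1, which encodes the hormone stanniocalcin, averaged -2.60 in Brca_42, where the lower of them read -4.78, or -0.42 after normexp, with its dimmer channel at 2.05 times background. Brcap53_682 had a mean of -0.17 over chr14:68568009-69335274 (40 probes). Brcap53_503 had no breakpoint after smoothing.

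C3TAg_8_RPT was the only C3(1)-Tag tumor with a loss, at a mean of -0.30, and the other 4 lay between -0.03 and 0.05. It was not scored with centring at the density peak (1.03% of probes lost) or by the deposited intervals (0% lost), which gave a gain to C3TAg_5RPT instead. A deeper segment of 10 probes over chr14:110564578-115473551 had a mean of -0.74, while the flanks had -0.29 and -0.33. It held Slitrk5 (-0.75), a neuronal transmembrane protein gene, and the glypican gene Gpc5 (-0.28 and -1.32), with all 10 probes below 0, and the first 2 probes of Gpc6 beyond it read -0.24 and -0.08. The lower Gpc5 probe, whose dimmer channel was at 1.72 times background, read 0.025 after normexp. This stretch has 2.04 probes per Mb, and 0.46 below the rest compares with -0.31 to 0.48 in the other tumors.

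Hras_An4_3 had gained the whole chromosome, with a mean of 0.42 and bins from 0.05 to 0.86 (median 0.43). The other MMTV-HRas tumors read -0.17, -0.11, -0.07 and -0.07, so that the gained tumor stood apart from all of them. PyMt_3 was likewise gained throughout, with a mean of 0.38 and 85 of 92 bins at 0.2 or above, while the other 8 MMTV-PyMT tumors lay between -0.04 and 0.02. Outside the models with a scored gain, Myc_04004021 had the highest mean, 0.16, with bins from -0.41 to 0.69, and was scored for gain only after normexp among the settings tried.

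**Figure D2:**
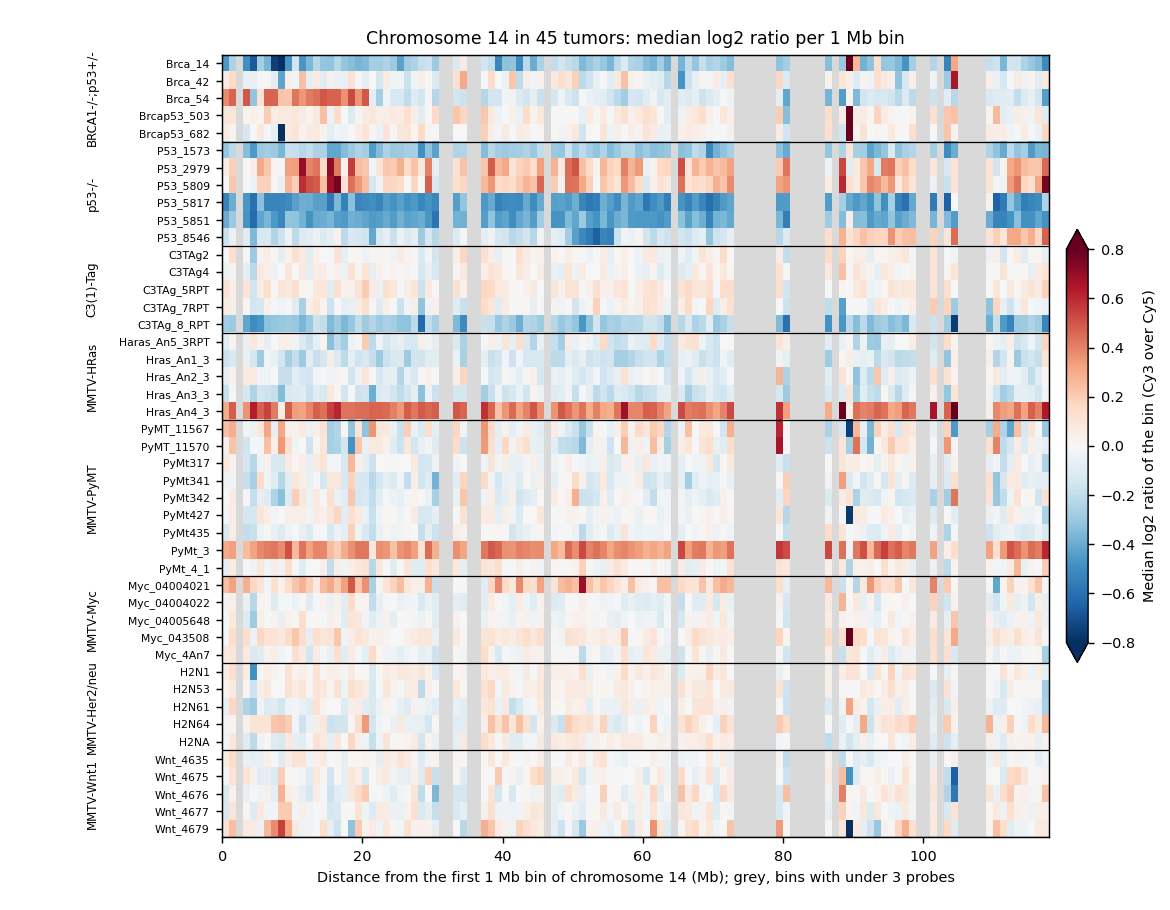
Median log2 ratio (colour, Cy3 over Cy5) of each 1 Mb bin of chromosome 14 (columns, distance from the first bin in Mb) in each tumor, grouped by model. Whole rows are blue in Brca_14, C3TAg_8_RPT, P53_1573, P53_5817 and P53_5851 and red in Hras_An4_3 and PyMt_3, while Brca_54 changes from red to pale blue and P53_8546 holds a short dark blue run.

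Small segments were also found around the T cell receptor and mast cell protease genes. Wnt_4675 had a mean of 0.25 over chr14:50246762-53215890 (55 probes), which covers the T cell receptor alpha and delta locus and ends just beyond Dad1 (0.48), a subunit gene of the oligosaccharyl transferase. Its median lay 0.21 above the rest, against -0.07 to 0.17 in the other tumors. Haras_An5_3RPT had a mean of -0.31 over chr14:53644097-54973663 (64 probes), Wnt_4679 -0.22 over chr14:53569304-55112463 (80 probes) and H2N64 -0.16 over chr14:50733596-54973663 (139 probes). The segments of Haras_An5_3RPT and H2N64 ended at the same boundary, between the mast cell protease genes Mcpt1 and Mcpt2.

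The last of these, in H2N64, is under the threshold for loss, although 4.39% of the probes of that tumor lay in lost segments after normexp. After normexp Wnt_4679 had no lost and Wnt_4675 no gained segment, while 4.13% of the probes of Haras_An5_3RPT were lost with and without it. The window of Haras_An5_3RPT lay 0.24 below its rest while another tumor reached -0.25. That of Wnt_4679 lay 0.26 below its rest while another tumor reached -0.27. The windows of Haras_An5_3RPT and Wnt_4679 held 48.1 and 51.8 probes per Mb, against 13.2 over the chromosome, and the part that probe density plays in these values was not tested. In H2N61 a segment of 36 probes over chr14:19280332-20415314 had a mean of 0.19, under the threshold for gain. It contained Myst4, a histone acetyltransferase gene.

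**Figure D3:**
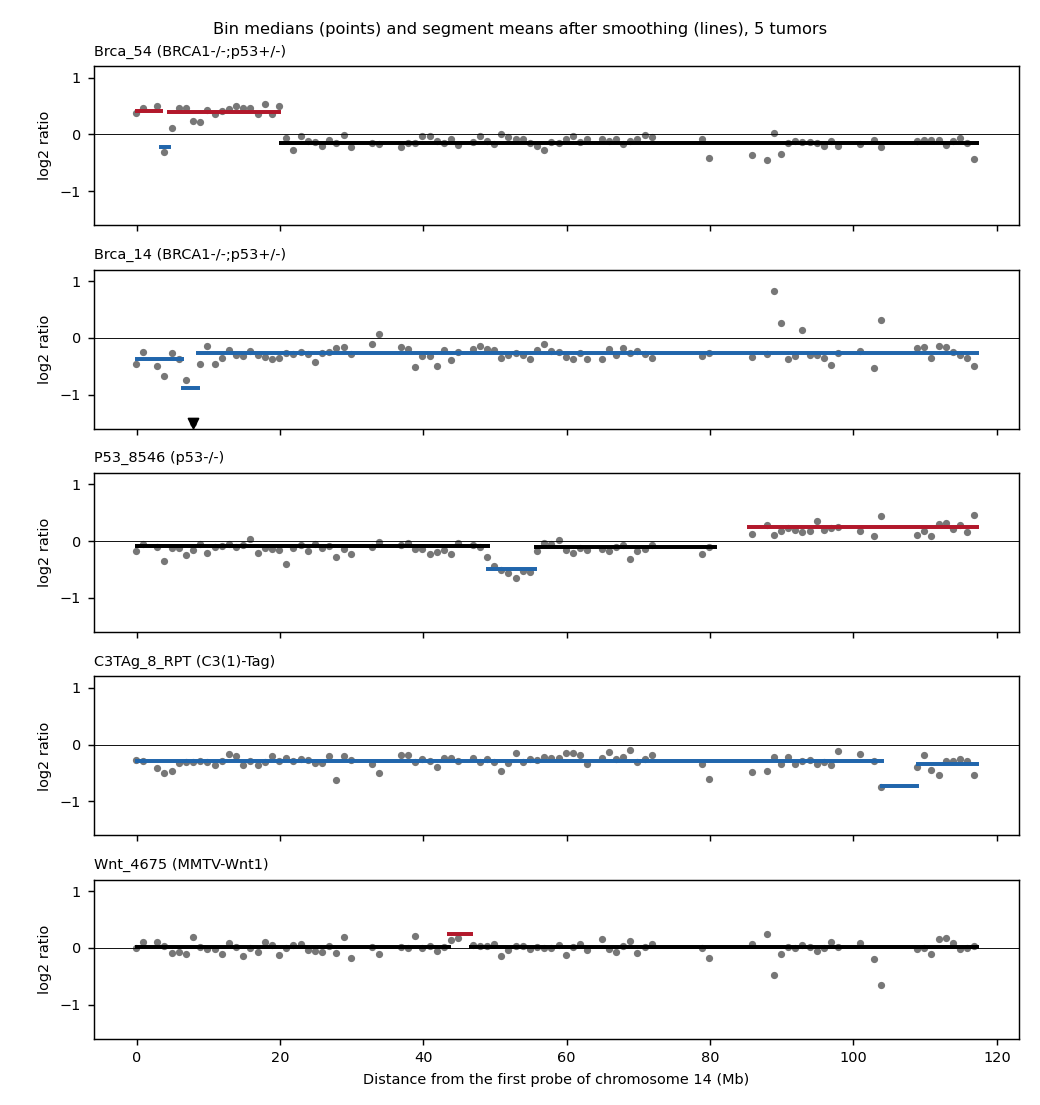
Bin medians (points) and segment means after smoothing of single probes (lines, red for gain and blue for loss) along chromosome 14 in 5 tumors, with log2 ratio on the vertical axis and distance from the first probe in Mb on the horizontal axis. A triangle marks a bin of Brca_14 below the axis range, at -3.21, and the smallest step at the ends of the proximal gain in Brca_54 and of the loss in P53_8546 is 0.398 in size.

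The microRNA clusters fell in different segments in P53_8546. miR-15a/16-1, which RefSeq places between Trim13 and Dleu7, lay in a lost segment (after smoothing) in 6 tumors, namely Brca_14, C3TAg_8_RPT, P53_1573, P53_5817, P53_5851 and P53_8546, and in a gained one in 4. miR-17-92, which lies next to Gpc5 in the RefSeq gene order, lay in a lost segment in the same tumors apart from P53_8546, which counted instead among 5 tumors with a gain. In P53_8546 the 3 probes flanking miR-15a/16-1 had a mean of -0.43 and the 3 probes flanking miR-17-92 a mean of 0.55. The latter are those of Slitrk5 and Gpc5, and RefSeq places 19 genes between Slitrk5 and the cluster. The array has no probe named for either cluster, so the losses and gains given here are states of the surrounding segment. Among the tumors with miR-17-92 in a lost segment, its flanking probes averaged -0.09 in Brca_14, -0.18 in P53_5817, -0.28 in P53_5851 and -0.33 in P53_1573. In C3TAg_8_RPT the flanking probes of miR-17-92 had a mean of -0.78, the lowest of all 45 tumors. They include the Gpc5 probe that read -1.32, or 0.025 after normexp.

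Whether models differed along the chromosome was tested with limma in 1 Mb bins, each the median of at least 3 probes, with Benjamini-Hochberg adjustment over 2057 autosomal bins. A moderated F test over the 8 models called 2 of the 92 bins of chromosome 14 at an adjusted p under 0.05, or 2.17%, against 19.4% of all autosomal bins. When each model was set against the mean of the other 7, p53-/- had 6 bins lower and 0 higher (6.52% in all), where 4.81% of all autosomal bins were lower and 2.28% higher, 7.10% in all. BRCA1-/-;p53+/- had 1 bin lower and 1 higher (2.17%), where the background was 2.09% lower and 0.389% higher, 2.48% in all. No bin was called in the other models. The background in either direction was 17.8% for MMTV-HRas (13.9% higher, 3.99% lower), 2.72% for MMTV-PyMT (2.53% higher, 0.194% lower), 0.438% for MMTV-Myc, 0.0486% for MMTV-Wnt1 and 0 for C3(1)-Tag and MMTV-Her2/neu. At an unadjusted p under 0.05, p53-/- had 38 of the 92 bins, where the share of all autosomal bins was 24.0%. MMTV-PyMT had 3 (autosomal share 13.8%), BRCA1-/-;p53+/- 2 (17.5%), C3(1)-Tag 2 (4.52%), MMTV-Wnt1 2 (6.47%), MMTV-HRas 1 (31.0%), MMTV-Myc 1 (6.71%) and MMTV-Her2/neu 0 (22.4%).

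The bin with the strongest difference in p53-/- was chr14:59000001-60000000, whose 17 probes lie in Nupl1, Mtmr6, Mipep, C1qtnf9 and Tnfrsf19. It read -0.65 in P53_8546, -0.55 in P53_5817, -0.48 in P53_5851, -0.31 in P53_1573, -0.02 in P53_5809 and 0.03 in P53_2979. The first 4 lay below all 39 tumors of the other models, which ran from -0.26 to 0.44 with a median of 0.00, and the other 2 lay among them. The model differed from the mean of the others by -0.34 (SE 0.075, adjusted p = 0.0042). Of the 2 bins called by the F test, this was 1 (adjusted p = 0.042).

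The 5 other bins lower in p53-/- were spread over the chromosome, and in each of them P53_2979 and P53_5809 had the highest values of the model. chr14:27000001-28000000 holds Erc2, the Wnt ligand gene Wnt5a and the calcium channel gene Cacna2d3, and differed by -0.26 (SE 0.08, adjusted p = 0.035). It read -0.49, -0.45, -0.45, -0.41, -0.14 and -0.02 over the 6 tumors, 4 of them below all other tumors, which reached down to -0.39. chr14:75000001-76000000, with the TGF-beta-responsive gene Tsc22d1, differed by -0.29 (SE 0.079, adjusted p = 0.017) and read -0.61, -0.54, -0.51, -0.31, 0.17 and 0.28, so P53_5809 and P53_2979 stood above 0 here. The neighbouring bins chr14:66000001-67000000, with the gonadotropin-releasing hormone gene Gnrh1 and Ebf2, and chr14:67000001-68000000, with the neurofilament genes Nefl and Nefm, differed by -0.27 (SE 0.071, adjusted p = 0.013) and -0.28 (SE 0.077, adjusted p = 0.018). In both, 2 of the 6 tumors lay below all others. The bin with Ghitm, chr14:36000001-37000000, differed by -0.24 (SE 0.077, adjusted p = 0.044), with 3 tumors below all others.

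The p53-/- count rested on few tumors. It was 1 without P53_5817, 2 without P53_5851, 3 without P53_1573, 10 without P53_5809 and 18 without P53_2979. The p53-/- tumors were scanned on 2 dates that also held tumors of other models, and within these dates they were lower in all 6 bins, by 0.30 and 0.36 at chr14:59000001-60000000. With scan date as a fixed term 0 bins were called, and the first bin differed by -0.29 (adjusted p = 0.219).

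In BRCA1-/-;p53+/- the lower bin, chr14:14000001-15000000, was the place of the deep loss of Brca_14. It read -3.21 in Brca_14, -0.89 in Brcap53_682, -0.42 in Brca_42, 0.08 in Brcap53_503 and 0.23 in Brca_54, against -0.52 to 0.55 in the other models. The first 2 lay below all of those. The bin has 4 probes and differed by -0.81 (SE 0.21, adjusted p = 0.031), and by -0.22 (adjusted p = 0.385) without Brca_14. The higher bin, chr14:95000001-96000000, has 3 probes, in Klhl1 and at chr14:95482903-95482962. It read 1.00, 0.98 and 0.83 in Brcap53_682, Brcap53_503 and Brca_14 and 0.05 and 0.03 in Brca_42 and Brca_54, and Myc_043508 reached 0.86. It differed by 0.61 (SE 0.13, adjusted p = 0.021), and the F test called it as well (adjusted p = 0.0101).

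Neither BRCA1-/-;p53+/- bin passed after normexp background correction, with differences of -0.18 (adjusted p = 0.565) and 0.32 (adjusted p = 0.267). None was called without Brcap53_682 or without Brca_14, and 1 was without Brca_42. The slides and scan dates of this model held no other model, so batch and group cannot be told apart.

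**Figure D4:**
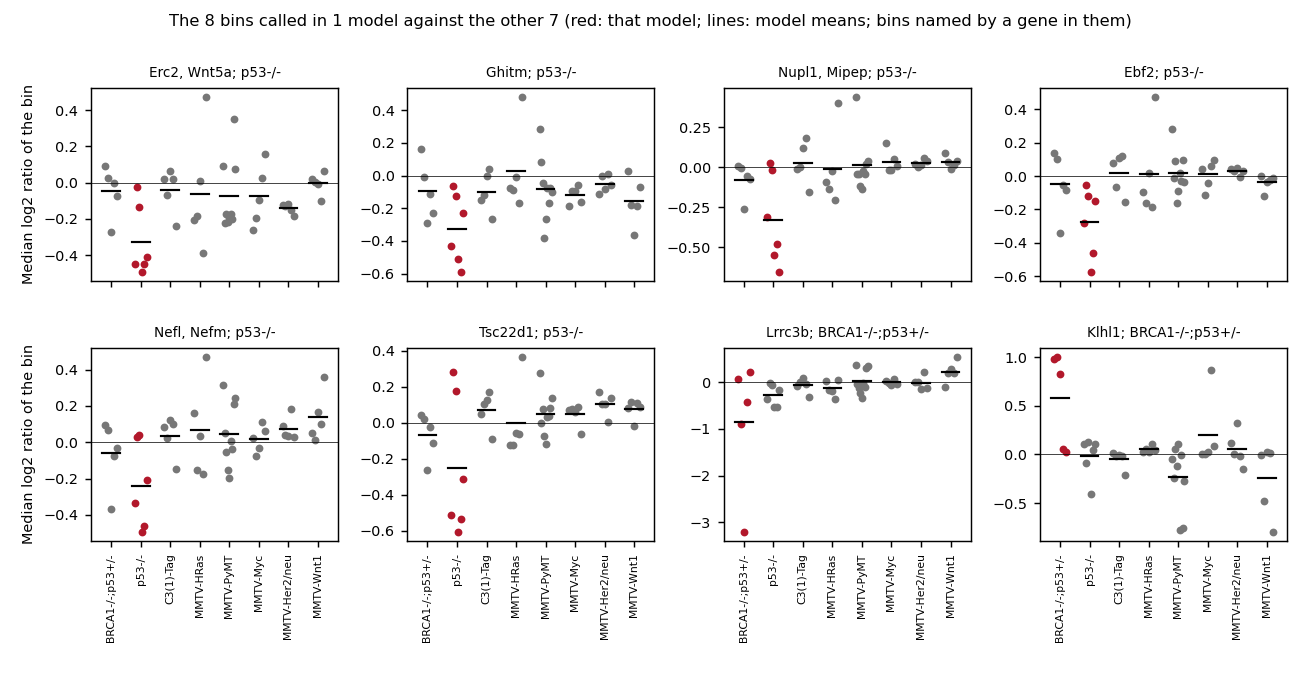
Median log2 ratio of the 8 bins called in 1 model against the other 7, in every tumor by model, with that model in red and model means as lines. In each p53-/- panel at least 2 red points lie among the other tumors, and in the Lrrc3b panel a single BRCA1-/-;p53+/- tumor at -3.21 sets the axis.

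Known genes of the chromosome were read from lists of tumor suppressor and genome maintenance genes (19 on the array, 7 listed names not found), growth factor, signalling and transcription genes (25, 4 not found), hormone and retinoid receptor genes (5) and clustered gene families (47), and from Dad1 beside the T cell receptor locus. The families were taken mainly by the start of the name, so Rnaseh2b was counted there as well as among the tumor suppressor genes. Ednrb was in both the signalling and the receptor list. A moderated F test over the models was also made for single probes. It called 141 of the 1548 probes of chromosome 14, or 9.11%, against 19.0% of all autosomal probes. The count was 26 with slide and 28 with scan date as a random block, 57 without the 5 tumors of doubtful label and 83 without P53_5817. By list it called 4 of 36 tumor suppressor probes (11.1%), 3 of 51 growth and signalling probes (5.88%), 0 of 9 receptor probes, 0 of 1 Dad1 probe and 5 of 58 probes of clustered families (8.62%), beside 9.11% on the chromosome. With slide as a random block 0 probes of these lists were called, and with scan date as a random block 1 was, in Rnase4 (adjusted p = 0.020). The adjusted p-values given below for listed genes are without a block. In p53-/- the median of the probe means was -0.11 in the tumor suppressor, -0.17 in the growth and signalling, -0.27 in the receptor and -0.14 in the clustered family list, and the single Dad1 probe was at 0.42, against -0.14 over the chromosome and 0.00 over all autosomal probes.

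Among the tumor suppressor genes, 2 of 3 probes of Tep1 and 1 of 2 of Tnfrsf10b were among those called. Tnfrsf10b, which encodes a death receptor for TRAIL, had the lowest model mean of its list, -0.48 ± 0.09 (SD, n = 6) in p53-/- (lowest adjusted p of its 2 probes 0.013). The 6 tumors read -0.58, -0.57, -0.48, -0.47, -0.42 and -0.35, including the 3 that were scored for gain. Tep1, a telomerase-associated protein gene, averaged -0.36 ± 0.17 (n = 6) in p53-/- (lowest adjusted p 0.027). The highest model mean of the list was that of the BMP receptor gene Bmpr1a, 0.39 ± 0.78 (n = 6) in p53-/-, which rested on 1.34 in P53_2979 and 1.35 in P53_5809 and did not pass (adjusted p = 0.052).

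Among the growth and signalling genes, 1 probe each of Stc1, Gpc6 and the secreted chaperone gene Clu passed. Stc1 had the lowest mean, -0.80 ± 1.01 (n = 5) in BRCA1-/-;p53+/-, in which Brca_42 at -2.60, with the probe that normexp reduced, stood far from the other 4, which lay between -0.48 and -0.16 (lowest adjusted p 0.025). The glypican gene Gpc6 averaged -0.39 ± 0.26 (n = 6) in p53-/- (lowest adjusted p 0.023). The stress kinase gene Mapk8 had the highest mean, 0.34 in p53-/- (adjusted p = 0.181).

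Among the receptors the thyroid hormone receptor gene Thrb was lowest, at -0.37 in p53-/- (adjusted p = 0.099), and the retinoic acid receptor gene Rarb highest, at 0.26 in MMTV-Wnt1 (adjusted p = 0.054). Of the clustered families the ribonuclease gene Rnase4 had the lowest adjusted p (0.007), with a mean of -0.57 ± 0.29 (n = 6) in p53-/- and values from -0.96 to -0.23. Besides Rnase4, 1 probe each of Gzmg, Olfr1507, Olfr736 and Olfr745 was called. The lowest mean of these families was that of the olfactory receptor gene Olfr722, -0.92 in BRCA1-/-;p53+/- (adjusted p = 0.082). The highest was that of the granzyme gene Gzmc, 0.84 in p53-/- (adjusted p = 0.294), and neither passed. The protease genes Cma1 and Mcpt1 lay in a lost segment after smoothing in 7 tumors, the most of any listed gene.

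The 10 probes of chromosome 14 with the lowest adjusted p in this test were led by 2610206B13Rik at chr14:103378928-103378987 (adjusted p = 2.23e-05). It read 3.30, 2.88, 1.59, 0.95 and 0.70 in the BRCA1-/-;p53+/- tumors Brca_42, Brca_14, Brca_54, Brcap53_503 and Brcap53_682, and its model mean in p53-/- was 0.89. After normexp the BRCA1-/-;p53+/- mean went from 1.88 to 0.83 and the p53-/- mean to 0.34, and the probe still passed (adjusted p = 0.00135). AK042665 at chr14:47699472-47699531 (adjusted p = 7.69e-05) read -3.56 in P53_1573, -3.33 in P53_5817, -3.21 in P53_5851 and -2.86 in P53_8546, but -0.26 in P53_2979 and -0.33 in P53_5809, and its p53-/- mean went from -2.26 to -0.85 after normexp (adjusted p = 0.00159). D230005D02Rik (adjusted p = 0.000468) divided the p53-/- tumors in the same way, with -3.30, -2.94, -2.58 and -2.51 against -0.03 and 0.23. The probe of Ripk3, the kinase gene of necroptosis, at chr14:54740675-54740730 (adjusted p = 0.000364) was instead low in all 6, from -1.03 in P53_2979 to -0.42 in P53_8546. The deposited intervals gave a gain at chr14:54741582-54741982 to P53_1573 (0.80) and P53_5851 (0.41), where this probe read -0.64 and -0.70.

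The cardiac myosin genes Myh6 (adjusted p = 0.000677) and Myh7 (adjusted p = 0.000774), which lie side by side, had means of opposite sign in p53-/-, -2.01 and 3.42. After normexp these were -0.36 and 0.30, and neither passed (adjusted p = 0.0558 and 0.488). Further probes among the 10 were that at chr14:6868333-6868392 (1.31 in p53-/-), the neurturin receptor gene Gfra2 (0.71 in p53-/- and 0.56 in BRCA1-/-;p53+/-) and AK021307 (1.00 in BRCA1-/-;p53+/-). Of these, the first and Gfra2 fell to 0.37 and 0.04 in p53-/- after normexp and did not pass.

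Before smoothing, 181 breakpoints with a step of at least 0.2 were found in 30 tumors, and after smoothing of single outlier probes 25 were found in 11, of which 14 lay between the same probes as before and 11 did not. The p53-/- model fell from 73 breakpoints in 4 tumors to 3 in P53_8546, and MMTV-Her2/neu from 24 in 5 tumors to 3 in 2. BRCA1-/-;p53+/- fell from 31 in 5 tumors to 11 in 4, MMTV-HRas from 15 in 5 to 2 in 1, and MMTV-Wnt1 from 12 to 4, in 2 tumors. C3(1)-Tag fell from 4 to 2, both in C3TAg_8_RPT, and MMTV-Myc and MMTV-PyMT fell from 10 and 12 to 0.

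Before smoothing there were 95 segments of at most 20 probes, in 29 tumors, and the most extreme probes of these segments were 50 different ones. The dimmer channel of these probes was at a median of 2.15 times its background, against 5.66 for all probes of the chromosome, and their median size of 3.22 became 0.66 after normexp. Still, 43 of the 95 segments stayed at least 0.2 from their surroundings without the extreme probe.

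The same extreme probes came back in different tumors. The Farp1 probe at chr14:120171701-120171760 was extreme in 7 tumors of 4 models, from -3.68 to -2.34. The probe at chr14:110551319-110551378 was extreme in 6 tumors of 3 models, but with either sign, from -6.36 to 7.12. The Myh7 probe was extreme in 5 tumors, 4 of them p53-/-. In p53-/- 42 short segments lay in P53_1573 (11), P53_5817 (10), P53_5851 (15) and P53_8546 (6), and P53_2979 and P53_5809 had 0. Of 17 extreme probes in this model, 5 were extreme in all 4 of the former tumors, 3 in 3 and 4 in 2 of them.

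Counted by bin before smoothing, a lost segment covered between 3 and 6 tumors and a gained one between 4 and 11. The bin lost in most tumors, first by position of those with 6, was chr14:10000001-11000000, whose 4 probes include 2 of the 3 of Ptprg. The bin gained in most was that of Klhl1 with 11 tumors, followed by the bin of Slitrk6 (chr14:109000001-110000000) with 9. Both have 3 probes and lie where probes are sparse, and the Klhl1 bin holds a recurrent extreme probe. At the Slitrk6 bin 4 of the 9 gained segments, in P53_1573, P53_5817, P53_5851 and Brcap53_503, have the recurrent extreme probe at chr14:110551319-110551378, and without it their means lay -0.025, 0.016, 0.090 and 0.19 from the smoothed level.

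**Figure D5:**
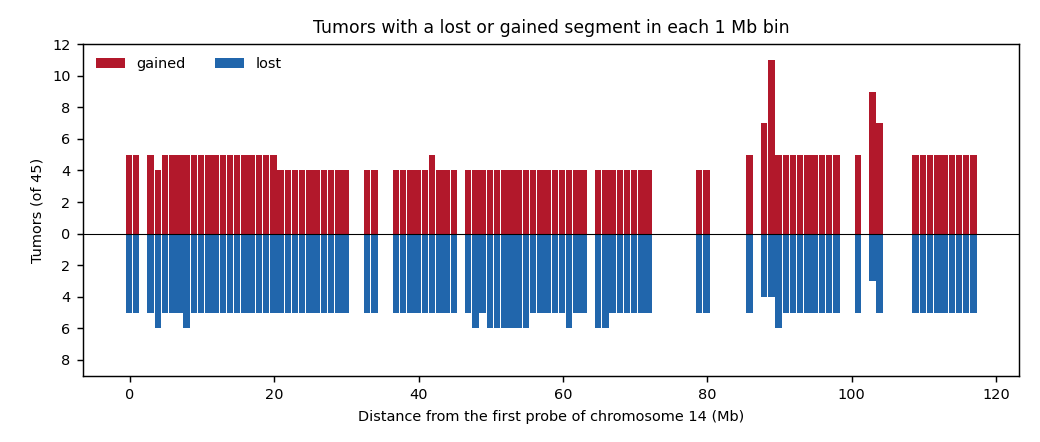
Number of tumors, of 45, with a gained segment (red, upward) or a lost segment (blue, downward) in each 1 Mb bin along chromosome 14, before smoothing, by distance from the first probe in Mb. Most bins have 4 or 5 gains and 5 losses, and the highest bars, 11 and 9 gains, stand at bins of 3 probes.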

How the data were processed

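Array CGH was analysed for 45 tumors on Agilent 44K arrays, grouped by the model in the labels. The authors deposited scanner output with processed intensity values and a log10 ratio of Cy5 over Cy3 per spot, made per the file headers with Agilent Feature Extraction 9.5.1.1 (10.7 in the labels). They also deposited intervals with mean log2 ratios on mm8, called by the ADM-2 algorithm at a threshold of 6, and 8 further tables that were not used. Outlier spots were left out, the log10 ratio was turned to log2 of Cy3 over Cy5 and centred on the autosomal median. Segments came from circular binary segmentation (Python 3.11.15, numpy 2.4.6, numba 0.67.0; split statistic over 6, at least 5 probes), tested on simulated data. Smoothing pulled a probe over 4 SD from its 5 neighbours on each side to 2 SD. Bins and probes were fitted with limma 3.58.1 (R 4.3.3), all 45 tumors sharing 1 estimate of spread, without batch terms, and tests were two-sided. Replicates were the tumors of 1 model. An array had 96.6 to 99.8% of probes well above background, with median Cy5 signals of 2.08 to 14.5 and Cy3 signals of 3.69 to 16.7 times background, on 18 slides and 10 scan dates. Precision is limited by the number of arrays.

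Named genes were the called probes and the highest and lowest means of the lists, the genes of called bins, of segments of at most 20 probes and beside described boundaries, and the 10 probes with the lowest adjusted p. Genes inside the larger lost or gained segments, the microRNAs and the recurrent extreme probes were chosen after values were seen. The probe set and the lists were chosen with earlier results of these data known. Results for some genes are not reported here. RefSeq tables of another build gave names, sequences and gene order only. No mm8 genome was used here, so GC content and probe sequence were not examined.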

Additional observations from a re-analysis of the deposited data

Results flagged for a closer look

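In 3 of the 8 models the mean log2 ratio of chromosome 14 in 1 tumor lay apart from the others of its model by Dixon's test. C3TAg_8_RPT was the lowest of 5 C3(1)-Tag tumors at -0.30. Hras_An4_3 was the highest of 5 MMTV-HRas tumors at 0.42. PyMt_3 was the highest of 9 MMTV-PyMT tumors at 0.38. By chance about 1 in 20 groups is set apart in this way, and none of the 8 called bins had such a tumor within its own model.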

How the results depend on the processing

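No paired analysis was possible because the labels pair no tumors of different models and the replicate numbers follow accession order. The 2 bins of the F test were 1 with centring at the density peak, normexp, loess, only probes well above background, at least 8 probes per bin, scan date as a random block or without the 5 tumors of doubtful label, and 0 with 2 Mb bins, slide as a fixed term or scan date as a fixed term. Leaving out single tumors gave 1 to 3. BRCA1-/-;p53+/- went from 2 bins to 0 with normexp, 2 Mb bins or at least 8 probes and to 1 with bright probes or scan date as a random block, and to 0 to 2 on leaving out single tumors. MMTV-HRas went from 0 to 1 at the density peak. p53-/- went from 6 to 1 with loess, 2 with 2 Mb bins and 0 with scan date as a fixed term, and to 1 to 18 on leaving out single tumors. Every other model had 0 to 0. Slide as a fixed term could not be fitted for BRCA1-/-;p53+/-, MMTV-HRas and p53-/-, which have slides of their own. Scan date as a fixed term left out BRCA1-/-;p53+/-. With these terms the F test covered only the remaining models, so its 0 bins do not compare with the 2 over 8 models. The 141 probes were 57 without the doubtful tumors, 26 and 28 with slide and scan date as random blocks, and 83 to 171 on leaving out single tumors. The cause was not tested.

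The 5 losses were 3 at a segment threshold of 0.3 and 2 by the deposited intervals, and 6 with loess or a split statistic of 5, where P53_8546 was scored for loss (10.3 and 11.2% of probes) as well as gain, and 4 to 5 on leaving out tumors. At the density peak C3TAg_8_RPT and P53_1573 were not scored and P53_8546 turned from gain to loss. Brca_14 and P53_1573 dropped out at 0.3, and these and C3TAg_8_RPT by the deposited intervals. The 6 gains stayed between 4 and 7, with Myc_04004021 added by normexp and C3TAg_5RPT and Wnt_4635 by the deposited intervals, and 5 to 6 on leaving out tumors. The 181 breakpoints were 14 with normexp, 286 and 90 at split statistics of 5 and 8, 25 after smoothing, which was chosen after seeing the data as was the scan date term, and 157 to 181 on leaving out tumors. The model mean of MMTV-Her2/neu was 0.0054 at the density peak, and that of MMTV-Wnt1 was -0.012 with normexp. With dyes as labelled the mean was -0.038 in MMTV-Her2/neu, -0.011 in MMTV-Wnt1 and -0.041 in MMTV-Myc. On leaving out tumors the means were -0.08 to 0.01 in BRCA1-/-;p53+/-, -0.07 to 0.02 in C3(1)-Tag, -0.10 to 0.04 in MMTV-HRas, 0.03 to 0.04 in MMTV-Her2/neu, 0.01 to 0.06 in MMTV-Myc, 0.003 to 0.05 in MMTV-PyMT, 0.01 to 0.01 in MMTV-Wnt1 and -0.17 to -0.02 in p53-/-.

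With dyes as labelled the p53-/- bins at 27, 36, 59, 66, 67 and 75 Mb were 0.26, 0.24, 0.34, 0.27, 0.28 and 0.29, and the BRCA1-/-;p53+/- bins 0.81 and -0.61. The probes were -1.69 for 2610206B13Rik, 2.10 for AK042665, -1.11 for the probe at chr14:6868333, 0.66 for Ripk3, 1.80 for D230005D02Rik, 1.81 for Myh6, -3.21 for Myh7, -0.75 for Gfra2 and -1.12 for AK021307. Gfra2 was -0.022 with normexp. Apart from these, the 8 bins kept direction and call in 60 of 82 values and these 9 probes in 66 of 69, and on leaving out tumors in 329 of 360 and 405 of 405.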
